A study of Rattus norvegicus with 18 samples.

Results

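Rat renal parenchyma labelled as 14 days after ligation of the left ureter was compared with parenchyma taken 1 day after the same operation. The comparison takes 8 of the 18 libraries of a time course of unilateral ureteral obstruction, 3 labelled 14 days and 5 at 1 day. The libraries at 3 and 7 days enter the gene filter, the scaling, the estimate of spread and the principal components. Some of their values are shown beside the comparison. All 8 are labelled as kidneys of rats with a ligated left ureter, operated under ketamine; the labels name no allele and no further drug, and give neither strain, sex nor age. Sham-operated rats, also part of the design, were not analysed here, and no library used here is labelled as unobstructed. Injury genes such as Havcr1 that were high at 1, 3 and 7 days were low in all 3 libraries labelled 14 days, and whether these libraries match their label was not tested. Genes were described where all 3 libraries labelled 14 days lay above, or all 3 lay below, all 5 libraries of day 1. Of 14511 genes with enough counts to test, 2982 met that rule, 1200 above and 1782 below.

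Closing a ureter stops urine flow and raises pressure in the tubules, and tubular cells respond within hours by making injury proteins such as KIM-1 and osteopontin, by re-entering the cell cycle and by attracting monocytes. Over days the proximal tubule, which reabsorbs most filtered solute through dedicated transporters, loses these transporters, while interstitial fibroblasts lay down collagen. The kidney is layered: cortex holds glomeruli and convoluted proximal tubules, the outer medulla holds proximal straight segments and thick ascending limbs, and the inner medulla and papilla hold collecting ducts bathed in concentrated urea and salt and lined at the pelvis by urothelium.

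The 3 libraries labelled 14 days were not alike. On the first principal component of all 18 libraries (40.5% of the variance) replicates 1 and 3 scored 125.9 and 143.9 and replicate 5 of day 1 scored 54.5, against −30.8 to −12.6 in the rest; replicate 2 labelled 14 days stood apart on the second component (18.6%), at 112.1. Pearson correlations of log2 CPM (counts scaled to the library total) across genes were 0.934 between replicates 1 and 3, 0.79 between 1 and 2, and 0.724 between 2 and 3, against 0.974 to 0.983 among replicates 1 to 4 of day 1. Replicate 5 of day 1 correlated at 0.905 and 0.887 with replicates 1 and 3 labelled 14 days. Library totals were 5623716 to 6445118 counts at 14 days as labelled and 5488540 to 10954852 at 1 day.

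Markers of kidney segments divided the same libraries. Summed FPKM (fragments per kilobase, scaled to the library total, a level per length) of the proximal tubule transporter and brush border list was 631, 11547 and 552 in replicates 1, 2 and 3 labelled 14 days, against 2075 to 3858 at 1 day. Urothelium markers summed to 928, 9.59 and 936, against 1.84 to 399 at 1 day, where 399 was replicate 5. Collecting duct principal cell markers summed to 2093, 497 and 1762, against 366 to 1406. Replicate 2 thus had high proximal tubule markers, and replicates 1 and 3 had high collecting duct and urothelial markers with low proximal ones.

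Single segment genes showed the same split. Umod, the kidney-specific thick limb protein uromodulin, was at 67.9, 2270 and 27.2 FPKM in replicates 1 to 3 labelled 14 days and at 16.6 to 77.4 at 1 day. Lrp2, the proximal endocytic receptor megalin, was at 6.83, 191 and 2.91 FPKM against 42.4 to 105. Aqp2, the collecting duct water channel, was at 694, 43.8 and 777 FPKM, and at 24.8 to 51.1 in replicates 1 to 4 and 371 in replicate 5 of day 1. Kidney markers were therefore present in every library, and none of these 3 genes separated the durations. The labels do not say how the tissue was divided, and the part that sampling of different kidney regions has in any result was not tested.

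**Figure D1:**
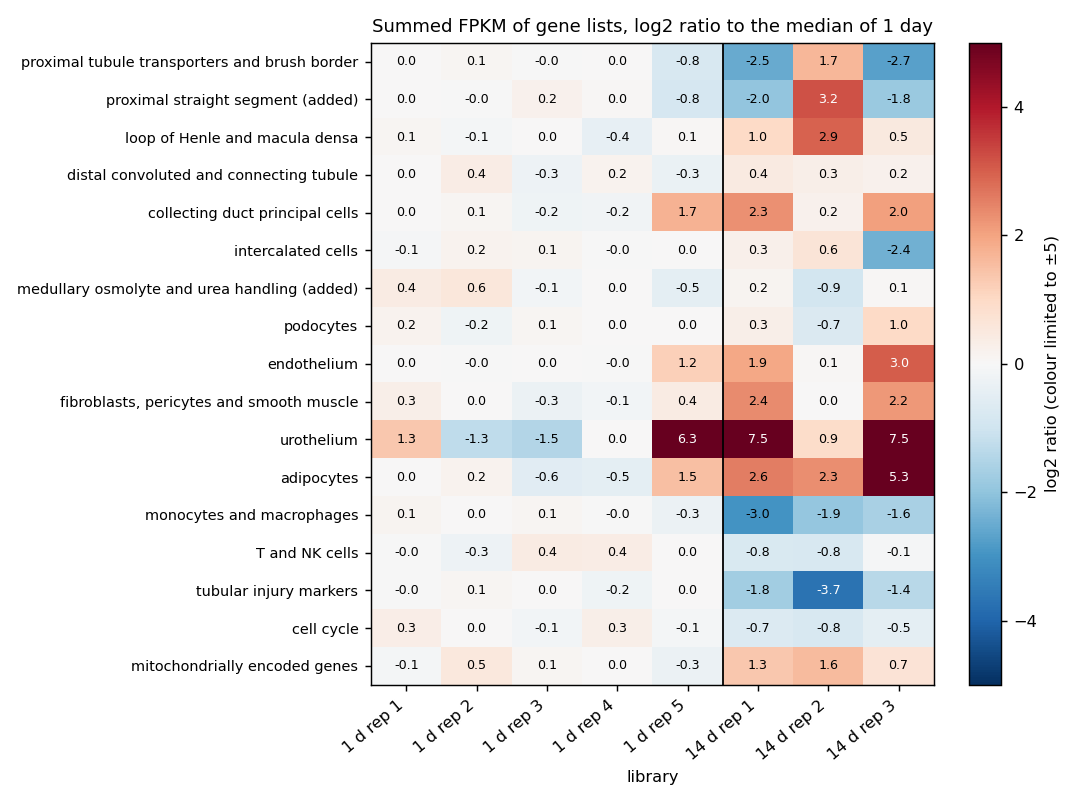
Summed FPKM of 17 gene lists in the 8 libraries, as the log2 ratio to the median of the 5 libraries at 1 day (columns: libraries; rows: lists; numbers: log2 ratios). Injury markers and monocyte and macrophage markers lie below 0 in all 3 libraries labelled 14 days, while proximal tubule lists are above 0 in replicate 2 and below 0 in replicates 1 and 3.

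By edgeR's quasi-likelihood test on counts scaled by TMM factors (trimmed mean of M-values), 4646 of the 14511 genes (32.0%) passed a threshold of 0.05 on p adjusted by Benjamini-Hochberg and are termed called, 2570 higher (17.7%) and 2076 lower (14.3%) in the libraries labelled 14 days. Of the 2982 genes without overlap on TMM-scaled CPM (20.5%; 8.27% above and 12.3% below), 2603 were also called, 1043 higher (7.19%) and 1560 lower (10.8%). At least a 2-fold difference was fitted for 448 of these higher and 788 of these lower genes. The test and the rule read the same counts, so the absence of overlap adds no support to a call. Over all tested genes 17.7% were called higher and 14.3% lower, and a list count near these shares does not set its list apart. The split between directions depended on scaling: with column totals in place of TMM factors 1402 genes were called higher and 3398 lower (29.2% higher, against 55.3%), and the median log2 fold change over all tested genes moved from 0.06 to −0.17. On FPKM 384 genes lay above and 3036 below, and on both TMM-scaled and FPKM values 375 lay above and 1753 below. The count on each side thus depended on the scaling. Each gene given below with a log2 fold change kept its sign under column totals. For genes given with a log2 fold change, a call lost in any of the following refits is stated in the same paragraph. These refits took the 8 libraries alone, limma-voom weights for each library, or the replicate number as a block. A further refit had replicate 2 as the only library labelled 14 days.

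At the edge of the rule, the lowest library labelled 14 days and the highest of day 1 were at 53.4 and 53.3 CPM for Rabep1, just inside on the higher side, and both at 46.5 for Hsf1, just outside. On the lower side Spry2 was just inside, with both nearest libraries at 25.0 CPM, and Polr1b just outside, with both at 28.1.

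**Figure D2:**
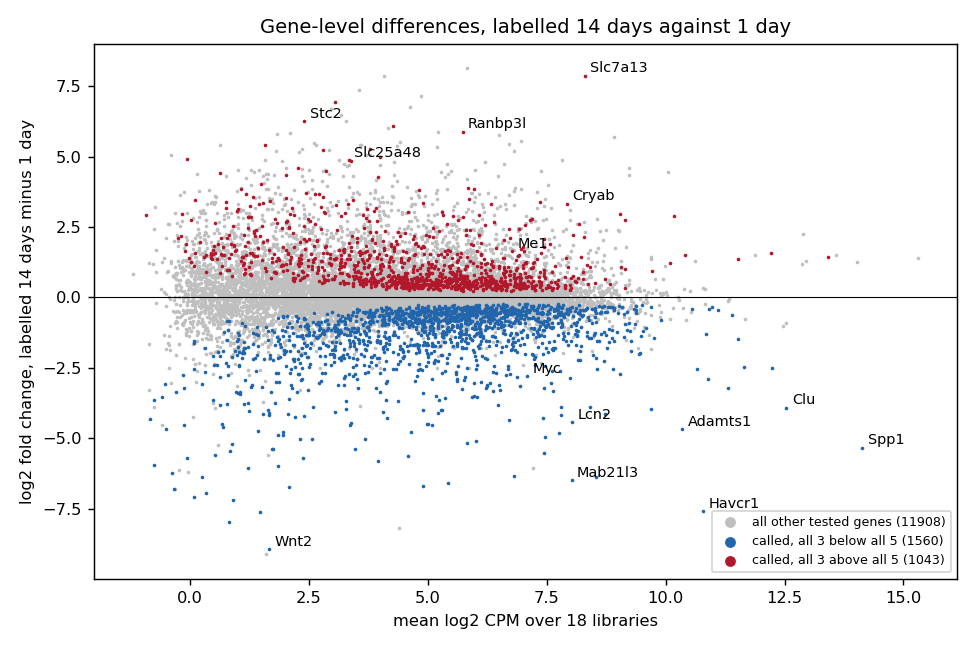
Log2 fold change (labelled 14 days minus 1 day, vertical) against mean log2 CPM over 18 libraries (horizontal), 1 point per tested gene. The 1560 genes called lower with no overlap (blue) reach larger changes among abundant genes, such as Spp1 and Havcr1, than the 1043 called higher (red); grey points are the other tested genes.

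Markers of tubular injury were lower in the libraries labelled 14 days. Of 28 tested members 12 were called lower, all 12 of them without overlap, and 1 higher, with a median log2 fold change of −0.85 against 0.06 over all tested genes. Without replicate 2 labelled 14 days 13 were called lower and 3 higher, without replicate 5 of day 1 the counts were 11 and 3, and with replicate 2 as the only library labelled 14 days 18 were lower and none higher. This list holds genes that obstruction is known to raise, and the summed FPKM of its members was 3994, 1043 and 5215 labelled 14 days against 11561 to 14301 at 1 day. Most of that gap lay in Spp1, Clu and Havcr1: without these 3 genes the sums were 3846, 728 and 4949 against 3196 to 5400.5, so that only replicate 2 lay below day 1.

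Havcr1, which encodes the injury receptor KIM-1, was at 793, 857, 1040.2, 673 and 640.3 FPKM at 1 day and at 1.52, 7.45 and 0.317 FPKM in replicates 1 to 3 labelled 14 days. All 3 libraries were far below all 5, with replicate 2 the highest of the 3. The libraries at 3 and 7 days held Havcr1 at 188 to 559 and at 258 to 505 FPKM. The log2 fold change was −7.59 ± 0.90 (SE; edgeR adjusted p 3.11e-05), a 192-fold lower level, and −9.65 without replicate 2. In the deposited annotation, whose genome build is not named, Havcr1 lies on chromosome 10 from 31813814 to 31848379.

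Spp1, encoding the secreted phosphoprotein osteopontin (chromosome 14, 6673686 to 6679901), was at 6468, 7992, 7127, 5641 and 5968 FPKM at 1 day and at 36.8, 258 and 80.1 labelled 14 days. Its groups did not overlap, and replicate 2 was again the highest of the 3. Its log2 fold change was −5.33 ± 0.63 (edgeR adjusted p 2.98e-05), and −6.77 without replicate 2. Clu, encoding the extracellular chaperone clusterin (chromosome 15, 42640146 to 42665857), was at 2227, 2255, 1699, 1561 and 1749 FPKM and at 109.9, 48.9 and 185. Here replicate 2 was the lowest of the 3, unlike Havcr1 and Spp1, and the log2 fold change was −3.91 ± 0.39 (edgeR adjusted p 7.47e-06).

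Cd44, the hyaluronan receptor of injured and regenerating tubules, was at 48.5 to 127 FPKM over the 5 libraries of day 1 and at 4.67, 4.96 and 5.72 labelled 14 days. The 3 low values were nearly equal, and the log2 fold change was −3.87 ± 0.44 (edgeR adjusted p 2.32e-05). Anxa3, a calcium-dependent membrane-binding annexin, fell to 5.29, 2.88 and 7.35 FPKM from 26.3 to 39.8 (log2 fold change −2.44 ± 0.28, edgeR adjusted p 2.61e-05). Lcn2, encoding the iron-carrier binding protein lipocalin 2 (NGAL), was at 128 to 375 FPKM at 1 day and at 12.0, 3.80 and 11.2 labelled 14 days. All 3 lay below all 5, at a log2 difference of −4.43 ± 0.78 (edgeR adjusted p 0.000662).

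Not every injury gene separated. Timp1, the tissue inhibitor of metalloproteinases made by tubules and fibroblasts, was at 117 to 133 FPKM at 1 day and at 37.1, 5.77 and 142 labelled 14 days, with a log2 difference of −0.92 ± 0.52 (edgeR adjusted p 0.187). Only replicate 3 reached the levels of day 1, and without it the log2 fold change of Timp1 was −2.30 (adjusted p 0.00182). Vim, the intermediate filament vimentin, was at 133, 43.1 and 451 FPKM against 85.8 to 194, and Krt19, a keratin of injured tubules, ducts and urothelium, was at 137, 3.34 and 68.4 against 8.36 to 110.2.

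**Figure D3:**
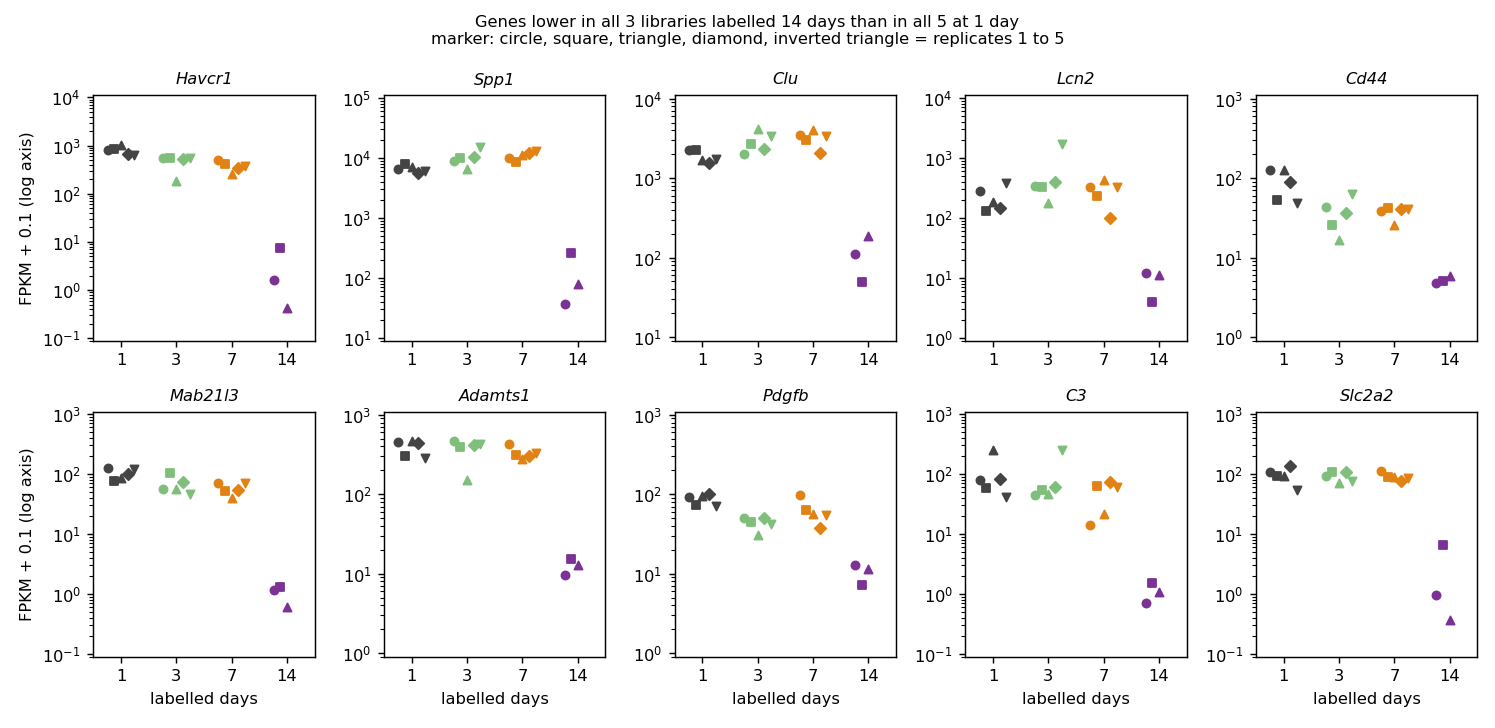
FPKM plus 0.1 (vertical, log axis) of 10 genes in all 18 libraries by labelled days (horizontal); 1 point per library, marker shape gives the replicate number. Each gene lies lower in the 3 libraries labelled 14 days than in the 5 at 1 day, as for Havcr1 (0.317 to 7.45 against 640.3 to 1040.2 FPKM).

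Fibrinogen chains, complement and other proteins of the acute phase were among the largest falls. Of 21 tested members of the complement and acute phase list 6 were called lower, 5 of them without overlap, and 2 higher, with a median log2 fold change of 0.15 (−0.03 with column totals), so the list as a whole did not move one way. Leaving out replicate 2 labelled 14 days gave 5 higher, and leaving out replicate 3 gave none. C3, the central complement component, was at 78.7, 58.7, 249, 81.8 and 41.1 FPKM at 1 day and at 0.612, 1.45 and 0.963 labelled 14 days. The 3 values were similar and far below day 1, with a log2 difference of −6.37 ± 0.99 (edgeR adjusted p 0.000266), or −5.73 without replicate 3 of day 1, the highest library.

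Fgb, the fibrinogen beta chain (chromosome 2, 182027115 to 182038178), was at 27.0 to 92.6 FPKM at 1 day and at 0, 1.78 and 0.0457 labelled 14 days. Its gamma chain partner Fgg, which lies beside it (chromosome 2, 181987217 to 181994514), was at 10.5 to 26.3 and at 0, 0.461 and 0.402 FPKM. Replicate 2 held what little Fgb remained, and neither gene overlapped between groups. The log2 fold changes were −6.33 ± 0.99 for Fgb and −5.82 ± 0.78 for Fgg (edgeR adjusted p 0.000296 and 9.12e-05). Leaving out 1 library labelled 14 days moved Fgb between −5.72 (without replicate 1) and −11.05 (without replicate 2), with −5.73 without replicate 3, and Fgg between −5.22 (without replicate 1) and −6.43 (without replicate 2). With library weights neither was called.

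Apcs, the pentraxin serum amyloid P, was at 37.0 to 97.8 FPKM at 1 day and at 1.11, 0.721 and 0 labelled 14 days (log2 fold change −6.60 ± 0.62, edgeR adjusted p 4.87e-06; −7.40 without replicate 1 and −5.94 without replicate 3 labelled 14 days). Hpx, the heme carrier hemopexin, was at 8.39 to 40.9 and at 1.40, 0.454 and 0.991 FPKM (−3.95 ± 0.58, edgeR adjusted p 0.000177; −3.27 without replicate 2 of day 1, its highest library). Both were low in every library labelled 14 days. Cfi, the protease factor I that inactivates C3b, fell by 3.99 on the log2 scale, to 0.30, 0.34 and 0.89 FPKM from 6.78 to 11.9. C7 and Hc, components of the membrane attack complex, fell by 2.00 and 3.11, C7 to 8.04, 6.31 and 22.6 FPKM from 33.9 to 74.9 and Hc to 0.436, 3.14 and 0.0923 from 10.2 to 18.4. Without replicate 2 labelled 14 days the log2 fold change of Hc was −5.61, and without replicate 3 that of C7 was −2.63. The call of Hc was lost with the 8 libraries alone and that of Cfi with library weights. Of 8 tested liver markers, Fgb among them, 2 were called higher and 1 lower (5 lower without replicate 2 labelled 14 days), with summed FPKM of 47.5, 292 and 206 against 131 to 807, and the part of liver RNA in these falls was not tested.

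The other largest falls were developmental and transport genes. Wnt2, a secreted Wnt ligand, was at 4.26 to 6.94 FPKM at 1 day and had no count in any library labelled 14 days, which makes it at least 49.1-fold lower against a floor of 3 counts over the group. Sox11, a transcription factor of progenitor cells, was at 51.0, 18.7, 42.5, 37.2 and 27.3 FPKM and at 0, 0.796 and 0.0772. Stmn4, a microtubule-destabilising stathmin, was at 4.30 to 6.91 and at 0, 0 and 0.11 FPKM. In each of the 3 genes the level labelled 14 days was at or near 0.

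Mab21l3 fell from 128, 77.8, 86.2, 100.3 and 123 FPKM to 1.08, 1.22 and 0.515. All 3 libraries were close together and below all 5, at a log2 difference of −6.49 ± 0.43 (edgeR adjusted p 6.47e-07). Ildr2, a membrane protein with an immunoglobulin-like domain, fell by 5.64 ± 0.55 on the log2 scale, from 15.6 to 32.0 FPKM down to 0.153, 0.778 and 0.377. Sox11 and Stmn4 fell by 6.70 ± 0.77 and 6.73 ± 0.88 (edgeR adjusted p 2.61e-05 and 7.10e-05). Without replicate 2 labelled 14 days the log2 fold changes were −9.49 for Sox11 and −6.48 for Ildr2, without replicate 1 it was −6.09 for Sox11, and without replicate 3 it was −9.00 for Stmn4.

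Growth factor and immediate early genes were mixed. Of 25 tested genes of TGF-beta, PDGF and CCN signalling 6 were called higher and 3 lower, at a median log2 fold change of 0.08. Over all tested genes 17.7% were called higher and 14.3% lower. Of 32 tested immediate early genes 9 were called lower, all without overlap, and 5 higher, 3 of these without overlap, with a median log2 fold change of −0.43 (3 higher without replicate 1 labelled 14 days). Pdgfb, the platelet-derived growth factor chain that recruits pericytes, was at 93.0, 72.7, 95.4, 99.3 and 70.3 FPKM at 1 day and at 12.7, 7.16 and 11.4 labelled 14 days. Its groups stood well apart, at a log2 difference of −2.84 ± 0.26 (edgeR adjusted p 4.16e-06). Myc, the growth-promoting transcription factor, was at 64.9 to 85.5 FPKM and at 5.37, 10.8 and 10.3. That gap held in each library, with a log2 difference of −2.80 ± 0.24 (edgeR adjusted p 2.58e-06).

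Klf6, a zinc finger factor induced in injured tubules, fell by 2.45 ± 0.33 on the log2 scale, to 10.5, 2.83 and 8.02 FPKM from 27.9 to 54.5. Fosl1, the AP-1 subunit FRA-1, fell by 3.20 ± 0.52, to 1.13, 0.214 and 1.87 from 6.88 to 15.6. Socs3, a feedback inhibitor of cytokine receptors, fell by 2.93 ± 0.45, to 4.18, 4.53 and 13.8 from 35.5 to 148. Ier5, an immediate early gene, fell by 2.08 ± 0.32, and Smad3, the signal carrier of TGF-beta receptors, by 0.73 ± 0.17, to 19.9, 14.6 and 15.4 FPKM from 23.0 to 38.1. Socs3 was highest in replicate 5 of day 1, and without replicate 3 labelled 14 days its log2 fold change was −3.57. Tgfb1, the ligand upstream of Smad3, overlapped, at 35.0, 7.48 and 57.2 FPKM against 17.3 to 39.5. The immediate early genes Dusp2 and Dusp1 were called higher, without overlap on the TMM scale. Dusp2 was at 28.6, 4.05 and 50 FPKM against 2 to 4.63, and Dusp1 at 72.8, 28 and 80.5 against 29.1 to 40. In FPKM replicate 2 was not above day 1 for either gene. Smad3 was not called with replicate 2 alone.

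Genes that cut or cross-link matrix were called in both directions, beside 14.3% lower and 17.7% higher over all tested genes. Of 29 tested members of that list 7 were called lower, 5 without overlap, and 6 higher, 1 without overlap (14 higher without replicate 2 labelled 14 days, and 3 higher without replicate 1 or without replicate 3). The median log2 fold change was 0.50, and −0.64 without replicate 3. Adamts1, a secreted protease of matrix proteoglycans (chromosome 11, 25342126 to 25350974), was at 457, 305, 467, 441 and 284 FPKM at 1 day and at 9.56, 15.4 and 12.9 labelled 14 days. The 3 values were close together and far below day 1, at a log2 difference of −4.68 ± 0.38 (edgeR adjusted p 1.60e-06). Adamts4, a related proteoglycan-cutting enzyme, fell by 2.84 ± 0.48 on the log2 scale, or 3.82 without replicate 3 labelled 14 days.

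Loxl1, a lysyl oxidase that cross-links elastin, fell by 2.10 ± 0.27, from 37.9 to 64.7 FPKM down to 7.59, 7.96 and 14.7. Bmp1, the proteinase that trims procollagen, fell by 1.36 ± 0.16, to 9.08, 5.12 and 11.6 from 19.5 to 29.8, and Mmp14, a membrane-bound collagenase, by 1.01 ± 0.16. Of 17 tested basement membrane genes 3 were called higher and 3 lower, at a median log2 fold change of 0.18. Without replicate 2 labelled 14 days 7 were higher and 3 lower. The laminin chains Lama1 and Lamb1 fell by 3.63 ± 0.53 and 1.03 ± 0.20. Another laminin chain, Lamb2, was called higher, at 95.8, 32.7 and 86.9 FPKM against 32.3 to 49.2, with replicate 2 overlapping in FPKM. Col12a1, a collagen that binds fibril surfaces, fell by 1.58 ± 0.38. Without replicate 2 labelled 14 days the log2 fold change of Lama1 was −5.11. Lamb1 was not called with replicate 2 alone, and Col12a1 neither so nor with the 8 libraries alone. All 6 genes of this paragraph that fell lay below day 1 in every library labelled 14 days.

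Fibrillar matrix genes did not separate by duration. Of 32 tested members 11 were called higher and 3 lower, 1 of each without overlap, and with replicate 2 as the only library labelled 14 days none was higher and 13 were lower. Leaving out replicate 2 gave 19 higher, and leaving out replicate 3 gave 3 higher and 7 lower. Col1a1, the main collagen of scar, was at 10.9, 1.83 and 26.1 FPKM against 13.7 to 25.2 at 1 day (log2 fold change −0.46 ± 0.44, edgeR adjusted p 0.45), 0.02 without replicate 2 and −1.37 (adjusted p 0.0255) without replicate 3. Fn1, fibronectin, was at 43.2, 6.66 and 65.5 FPKM against 58.6 to 105 (−1.08 ± 0.43, edgeR adjusted p 0.0649), and −1.62 (adjusted p 0.021) without replicate 3. Col3a1 was at 26.2, 3.84 and 103 FPKM against 35.6 to 60.5. In all 3 genes replicate 2 was the lowest and replicate 3 the highest library labelled 14 days. Thbs2, a matricellular thrombospondin, was the member above in every library, at 2.22, 1.30 and 2.16 FPKM against 0.311 to 0.912 (log2 fold change 1.66 ± 0.44, edgeR adjusted p 0.0101), and was not called with replicate 2 alone.

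Markers of monocytes and macrophages were lower or did not pass the test. Of 38 tested members 14 were called lower, all without overlap, and none higher, with a median log2 fold change of −0.82. Over all tested genes 10.8% were called lower without overlap. Among the members 12 were lower without replicate 2 labelled 14 days, 12 without replicate 5 of day 1 and 6 without replicate 1 labelled 14 days. With replicate 2 as the only library labelled 14 days the median log2 fold change was −1.29. The list summed to 323, 671 and 832 FPKM against 2104 to 2791 at 1 day. In bulk tissue fewer cells of a type and less RNA per cell cannot be told apart. Lgmn, a lysosomal protease also made by proximal tubule, gave much of that sum, at 42.5, 393 and 58.3 FPKM against 742 to 1619 (log2 fold change −2.54, and −4.62 without replicate 2), and was not called with the 8 libraries alone. Without Lgmn the list summed to 281, 277 and 774 FPKM against 1173 to 1361.

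Cx3cr1, the fractalkine receptor of resident macrophages, was at 6.74, 3.87, 7.5, 5.36 and 9.28 FPKM at 1 day and at 0.71, 1.34 and 1.05 labelled 14 days (log2 fold change −2.41 ± 0.48, edgeR adjusted p 0.00157). Itgax, the integrin CD11c of dendritic cells and macrophages, fell by 1.94 ± 0.36, to 1.14, 0.875 and 2.59 FPKM from 4.61 to 9.67. Apoe, the lipid carrier made by macrophages and tubules, fell by 1.90 ± 0.43, to 64.8, 30.6 and 125 from 187 to 415. These 3 were low in every library labelled 14 days, but Cx3cr1 was not called with library weights or with replicate 2 alone. Cd68, a lysosomal macrophage protein, overlapped, at 4.17, 2.44 and 22.4 FPKM against 13.9 to 28.7 (−0.78 ± 0.53, edgeR adjusted p 0.275), but was at −2.15 (adjusted p 0.00719) without replicate 3.

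Of 14 tested genes of MHC class II presentation 3 were called lower and none higher, and 6 lay below in every library. Over all tested genes 14.3% were called lower and 12.3% lay below in every library, so the count of calls does not set this list apart. Cd74, the class II invariant chain, was at 34.3, 46.4 and 59.7 FPKM against 181 to 279.8 (log2 fold change −1.96 ± 0.53, edgeR adjusted p 0.0112), and RT1-DMb, a chain of the peptide-loading molecule, at 0.667, 0.604 and 0.967 against 1.99 to 2.86. With replicate 2 alone neither was called, nor was RT1-DMb with library weights. Ptprc, the leukocyte antigen CD45, was at 2.05, 2.15 and 3.5 FPKM against 3.45 to 6.67, below in every library on the TMM scale but not in FPKM, and did not pass the test (−0.84 ± 0.36, edgeR adjusted p 0.082). T and NK cell markers were 1 called higher and 1 lower of 29 (3 lower without replicate 5 of day 1), and the T cell receptor subunit gene Cd3e was at 0.209, 0.394 and 0.482 FPKM against 0.693 to 1.16 (edgeR adjusted p 0.172).

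Ligands and adhesion molecules that draw leukocytes differed among themselves. Cxcl16, a membrane-bound chemokine, was at 259.6, 237, 276, 292 and 185 FPKM at 1 day and at 54.7, 31.8 and 53.1 labelled 14 days. The groups stood apart, at a log2 difference of −2.22 ± 0.19 (edgeR adjusted p 2.32e-06). Ccl20, a chemokine for T cells, fell by 3.74 ± 0.74, to 0.399, 0.226 and 0.591 FPKM from 2.72 to 13.9, and Icam1, the adhesion molecule ICAM-1, by 1.39 ± 0.32. The call of Ccl20 was lost with library weights and that of Icam1 with the 8 libraries alone. Ccl2, the main monocyte chemokine, went both ways, at 85.6, 1.28 and 125 FPKM against 20.5 to 45.2. The interferon list had 1 called lower of 27 and none higher, but 8 higher without replicate 5 of day 1 and 5 lower without replicate 3 labelled 14 days. Psmb10, an interferon-inducible immunoproteasome subunit, fell by 1.92 ± 0.32 (2.52 without replicate 3 labelled 14 days).

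Genes of the cell cycle were lower. Of 47 tested members 28 were called lower, 25 of them without overlap, and 2 higher, both without overlap, with a median log2 fold change of −1.21 (32 lower without replicate 2 labelled 14 days, 27 without replicate 5 of day 1, 34 with column totals). Ccnb1, the cyclin of mitotic entry, was at 3.49, 2.55, 1.93, 2.95 and 2.31 FPKM at 1 day and at 0.489, 0.554 and 0.386 labelled 14 days. Levels were low in both groups, but did not overlap (log2 fold change −2.22 ± 0.30, edgeR adjusted p 0.0001).

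Mcm3, part of the replicative helicase, fell by 1.86 ± 0.30, to 2.09, 1.15 and 4.02 FPKM from 7.26 to 12.1. Prc1, which bundles microtubules in the dividing cell, fell by 1.95 ± 0.33, and Mki67, the proliferation antigen Ki-67, by 1.86 ± 0.35, to 0.175, 0.342 and 0.518 FPKM from 0.813 to 2.29. Cdc45, a partner of the MCM helicase, went the other way, at 4.22, 2.78 and 5.80 FPKM against 2.22 to 3.21 (log2 fold change 0.90 ± 0.20, edgeR adjusted p 0.00317). Its replicate 2 overlaps day 1 in FPKM and not on the TMM scale, and no member of the list lay above on both scales. Prc1 and Cdc45 were not called with replicate 2 alone, nor Mki67 with library weights.

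**Figure D4:**
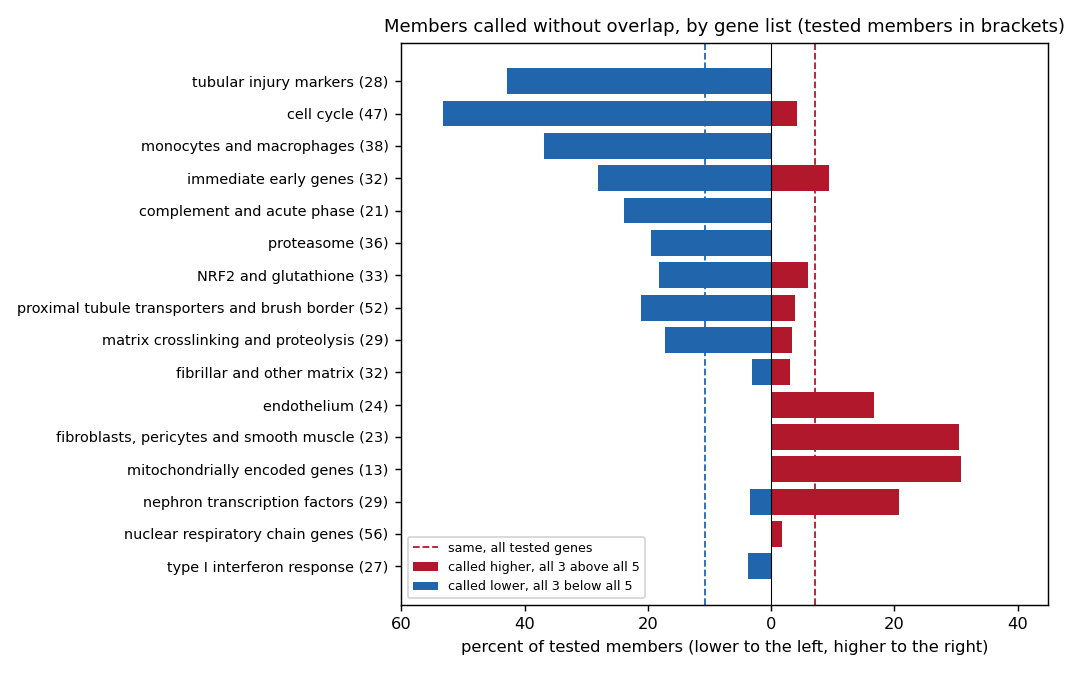
Percent of tested members of 16 gene lists that were called lower with all 3 below all 5 (blue, to the left) or called higher with all 3 above all 5 (red, to the right); dashed lines give the same percents over all tested genes, 10.8 and 7.19. Injury markers (12 of 28), cell cycle genes (25 of 47) and macrophage markers (14 of 38) reach furthest to the left.

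Proteasome subunits were called lower or did not pass the test. Antioxidant genes were called in both directions, beside 14.3% lower and 17.7% higher over all tested genes. Of 36 tested proteasome subunits 14 were called lower, 7 without overlap, and none higher, at a median log2 fold change of −0.34; 35 were lower with column totals, and 27 without replicate 2 labelled 14 days. Psmd8, a regulatory particle subunit, was at 59.5, 70.2 and 62.4 FPKM labelled 14 days against 115 to 191 at 1 day (log2 fold change −1.10 ± 0.19, edgeR adjusted p 0.000534). All 3 libraries were alike here. Of 33 tested NRF2 and glutathione genes 7 were lower, 6 without overlap, and 6 higher, but with replicate 2 labelled 14 days left out 16 were lower and 3 higher, and with replicate 1 left out 10 were higher. With replicate 2 alone 17 were higher and 5 lower, and the median log2 fold change was 0.03 (−0.19 with column totals).

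Hmox1, the heme-degrading enzyme, was at 33.2 to 57.9 FPKM at 1 day and at 9.02, 1.48 and 12.1 labelled 14 days (log2 fold change −2.34 ± 0.45, edgeR adjusted p 0.00136). Gpx3, the secreted plasma glutathione peroxidase that kidney makes, fell to 373, 1462 and 326 FPKM from 2936 to 7599 (−2.52 ± 0.56, and −3.87 without replicate 2). Gpx2, the epithelial isozyme, fell by 1.75 ± 0.40 (2.44 without replicate 1 labelled 14 days), Sod2, mitochondrial superoxide dismutase, by 1.06 ± 0.23, and Srxn1, which repairs oxidised peroxiredoxins, by 1.01 ± 0.25. All 5 lay below day 1 in every library. Gpx3 and Gpx2 were not called with the 8 libraries alone, nor Gpx3, Sod2 and Srxn1 with replicate 2 alone. Me1, the cytosolic malic enzyme that makes NADPH and a member of the same list, rose.

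Me1 was at 30.5, 28.0, 24.9, 24.5 and 28.1 FPKM at 1 day and at 70.5, 48.9 and 103 labelled 14 days, a log2 difference of 1.63 ± 0.14 (edgeR adjusted p 2.32e-06). Of 43 tested genes of amino acid catabolism and ammonia 10 were called higher and 4 lower, at a median of 0.85, against 1 higher and 18 lower without replicate 2 labelled 14 days and 19 higher without replicate 1 or 3. Of 11 genes of gluconeogenesis and fructose use 4 were higher and 2 lower, at a median of 1.01, against 1 higher and 4 lower without replicate 2 (2 higher without replicate 3 of day 1, and 1 lower without replicate 1 or 3 labelled 14 days or replicate 1 or 2 of day 1).

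Among the members that fell were Asl, argininosuccinate lyase, by 1.59 ± 0.22, and Got2, mitochondrial aspartate aminotransferase, by 1.12 ± 0.16. Pck2, the mitochondrial PEP carboxykinase of the gluconeogenesis list, fell by 1.28 ± 0.14, to 11.7, 10.8 and 17.0 FPKM from 34.5 to 41.3. Gpt, the cytosolic alanine aminotransferase, was at 11.1, 28.0 and 26.0 FPKM against 5.13 to 8.59, a rise of 2.02 ± 0.27 (edgeR adjusted p 8.24e-05). Cat, the peroxisomal catalase, was at 78.0, 487 and 87.8 FPKM against 53.6 to 78.6, and its call rested on replicate 2 (log2 fold change 2.15, and 0.41 with adjusted p 0.36 without it). It was also not called with the 8 libraries alone, with library weights, with the replicate block or by limma on FPKM.

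Transporters of the proximal tubule held genes that fell in every library and genes that followed the library. Of 52 tested members 13 were called lower, 11 without overlap, and 9 higher, 2 without overlap; 32 were lower and 1 higher without replicate 2 labelled 14 days, and 8 lower and 27 higher with replicate 2 alone. The median log2 fold change was 0.11, −2.75 and 1.45 in these 3 fits, and −0.38 with column totals. Slc4a4, the basolateral sodium bicarbonate cotransporter NBCe1 (chromosome 14, 20479323 to 20920286), was at 77.9, 34.5, 47.2, 88.0 and 44.4 FPKM at 1 day and at 1.26, 1.13 and 0.797 labelled 14 days. Its log2 difference was −5.52 ± 0.61 (edgeR adjusted p 2.07e-05), and it was low in replicate 2 too. Markers of the proximal straight segment, listed after their values were seen, were high in that library. They summed to 228, 8258 and 251 FPKM in replicates 1 to 3 labelled 14 days, against 505 to 1061 at 1 day. The part of the sampled region in these falls was not tested.

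Slc5a2, the glucose transporter SGLT2 of the early proximal tubule, was at 121, 98.8, 84.0, 77.3 and 33.3 FPKM and at 3.81, 6.30 and 3.71 (log2 fold change −3.88 ± 0.55, edgeR adjusted p 0.000133). Slc2a2, the basolateral glucose exit GLUT2, was at 53.5 to 134 and at 0.876, 6.51 and 0.27 FPKM (−4.82 ± 0.76, and −7.28 without replicate 2). For both, the lowest library of day 1 was replicate 5 and still above all 3. Slc7a7 and Slc7a8, basolateral amino acid exchangers, fell by 4.18 ± 0.47 and 2.76 ± 0.38 on the log2 scale, Slc7a7 to 6.09, 2.60 and 16.4 FPKM from 117 to 228 (−4.98 without replicate 3). Slc10a2, the apical bile acid transporter ASBT, fell by 5.38 ± 0.59, to 0, 0.344 and 0.06 FPKM from 4.65 to 9.97 (−4.78 without replicate 1 and −7.45 without replicate 2 labelled 14 days).

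Slc34a1, the apical phosphate transporter of the early segments, did not separate, at 54.9, 586 and 8.17 FPKM against 27.5 to 217. Slc7a13, a cystine transporter of the proximal straight segment, was at 1.92, 2.25, 9.41, 3.12 and 1.53 FPKM at 1 day and at 9.59, 1764 and 11.5 labelled 14 days. It met the rule narrowly in replicates 1 and 3, and its fold change came from replicate 2. The log2 fold change was 7.86 ± 1.60 (edgeR adjusted p 0.00187), 8.62 without replicate 3 of day 1 and 1.58 (adjusted p 0.221) without replicate 2. Slc22a13, an organic anion and urate transporter, behaved alike, at 0.785, 43.4 and 0.388 FPKM against 0 to 0.273 (6.95, and 1.89 with adjusted p 0.219 without replicate 2). Neither was called with library weights, nor Slc7a13 with the replicate block, nor Slc22a13 by limma on log2(FPKM + 1). Aqp1, the water channel of proximal tubule and thin limb, was at 116, 665 and 161 FPKM against 42.1 to 96.8, a rise of 2.74 ± 0.57 that was 1.22 (adjusted p 0.0317) without replicate 2.

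Promoter windows of the separated genes were searched for the letters TGANTCA, a loose form of the AP-1 motif that FOS and JUN dimers bind. N stood for any base, so the counts include TGATTCA, as in Slc5a2 and Slc10a2 below, besides TGACTCA and TGAGTCA. The palindromic HNF1 motif of proximal tubule genes was searched too, and each motif was read on both strands. RefSeq windows of equal length around the gene start (GRCr8) were matched by symbol for 225 of 312 genes called lower without overlap at a log2 fold change of −2 or less and for 90 of 149 called higher at 2 or more. AP-1 letters stood in 15 (6.67%) and 7 (7.78%) of these windows, beside 5.03% of the 10076 windows of tested genes and 7.33% of all 27457 windows. HNF1 letters stood in none of either set and in 1 of all windows. Pieces around the AP-1 match (capitals), printed 5′ to 3′ on the strand of the gene, are given for 3 genes that fell (Slc5a2, Slc10a2, Fgb) and for Cidec, a lipid droplet protein that rose, to show that the letters occurred on both sides; a match is not evidence of binding.
Slc5a2: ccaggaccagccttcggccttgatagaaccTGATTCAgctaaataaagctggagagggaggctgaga
Slc10a2: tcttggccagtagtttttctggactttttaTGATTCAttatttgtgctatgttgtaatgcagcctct
Fgb: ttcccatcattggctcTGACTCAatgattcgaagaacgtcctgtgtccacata
Cidec: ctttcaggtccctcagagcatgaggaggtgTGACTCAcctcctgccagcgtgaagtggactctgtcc
In GRCr8 these pieces lie at chr1:192277461-192277527 (plus strand), chr16:91087931-91087997 (plus), chr2:170701073-170701125 (minus) and chr4:148137187-148137253 (minus). Cidec was at 14.7, 37.4 and 114 FPKM labelled 14 days against 5.98 to 11.9 (log2 fold change 2.85 ± 0.50, edgeR adjusted p 0.000685; 1.99 without replicate 3).

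Transcripts of the mitochondrial genome, which encode subunits of the respiratory chain, rose as a group. All 13 tested members were called higher, 4 of them without overlap, at a median log2 fold change of 1.44 (12 of 13 without replicate 2 labelled 14 days, and 13 of 13 with column totals, at a median of 1.15). Their share of all counts was 24.03%, 27.36% and 14.4% in replicates 1 to 3 labelled 14 days and 9.85 ± 2.24% (SD, n = 5) at 1 day. The difference of 12.08 percentage points had an exact two-sided permutation p of 0.0357 over 56 arrangements. Replicate 3 exceeded the highest library of day 1, at 13.57%, by little.

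Mt-nd5, a subunit of complex I, was at 1892, 2952, 1964, 2081 and 1459 FPKM at 1 day and at 5772, 6217 and 3073 labelled 14 days (log2 fold change 1.57 ± 0.32, edgeR adjusted p 0.00172). Mt-co2, a subunit of cytochrome oxidase, was at 8972 to 14186 FPKM and at 35119, 31261 and 14583 (1.44 ± 0.31, edgeR adjusted p 0.00297). Mt-nd4l and Mt-atp8, subunits of complex I and of ATP synthase, rose by 1.5 ± 0.29 and 1.36 ± 0.27. These transcripts overlap their neighbours Mt-nd4 and Mt-atp6, so their reads cannot be told apart from those. Of 56 nuclear genes of the respiratory chain 3 were called higher and none lower, against 1 higher and 19 lower without replicate 2 labelled 14 days and 6 higher without replicate 3. Ndufa7, a nuclear complex I subunit, was the 1 of these without overlap on the TMM scale, at 101, 111 and 126 FPKM against 74.6 to 103 (0.63 ± 0.16, edgeR adjusted p 0.00648), and was not called with the 8 libraries alone or with library weights.

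The largest rises held in all 3 libraries for several genes. Slc25a48, a mitochondrial inner membrane carrier (chromosome 17, 8570472 to 8607494), was at 1.17, 1.67, 1.89, 1.19 and 2.34 FPKM at 1 day and at 55.8, 25.8 and 48.2 labelled 14 days. Each of the 3 was far above the highest of day 1, and the log2 fold change was 4.87 ± 0.43 (edgeR adjusted p 2.99e-06), 29.2-fold. Stc2, the secreted glycoprotein stanniocalcin 2, was at 0, 0.219, 0.0586, 0.351 and 0.564 FPKM and at 5.75, 24.1 and 14.4. It was highest in replicate 2, and its log2 fold change of 6.25 ± 0.71 (edgeR adjusted p 2.32e-05) was 5.43 without that library and 7.02 without replicate 5 of day 1.

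Ranbp3l was at 1.03, 1.48, 1.5, 3.07 and 4.61 FPKM at 1 day and at 205, 26.6 and 141 labelled 14 days. Replicate 2 was the lowest of the 3 and still above all 5, with a log2 difference of 5.88 ± 0.54 (edgeR adjusted p 4.30e-06; 5.27 without replicate 1). Sult1a1, a phenol sulfotransferase, was at 5.07 to 20 FPKM and at 25.5, 218 and 94.4 (3.88 ± 0.57, edgeR adjusted p 0.000172; 2.63 without replicate 2). Rises of signalling genes were small in replicate 2. Npy1r, a neuropeptide Y receptor, was at 11.1, 0.722 and 19.9 FPKM against 0.312 to 0.584 (log2 fold change 4.83, 4.07 without replicate 3), Nov, the matricellular protein CCN3, at 9.41, 1.75 and 30.3 against 0.15 to 1.27 (4.49, 3.32 without replicate 3), and Gper1, a membrane estrogen receptor, at 22.7, 1.67 and 17.6 against 0.267 to 1.07 (4.35, 3.77 without replicate 1).

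**Figure D5:**
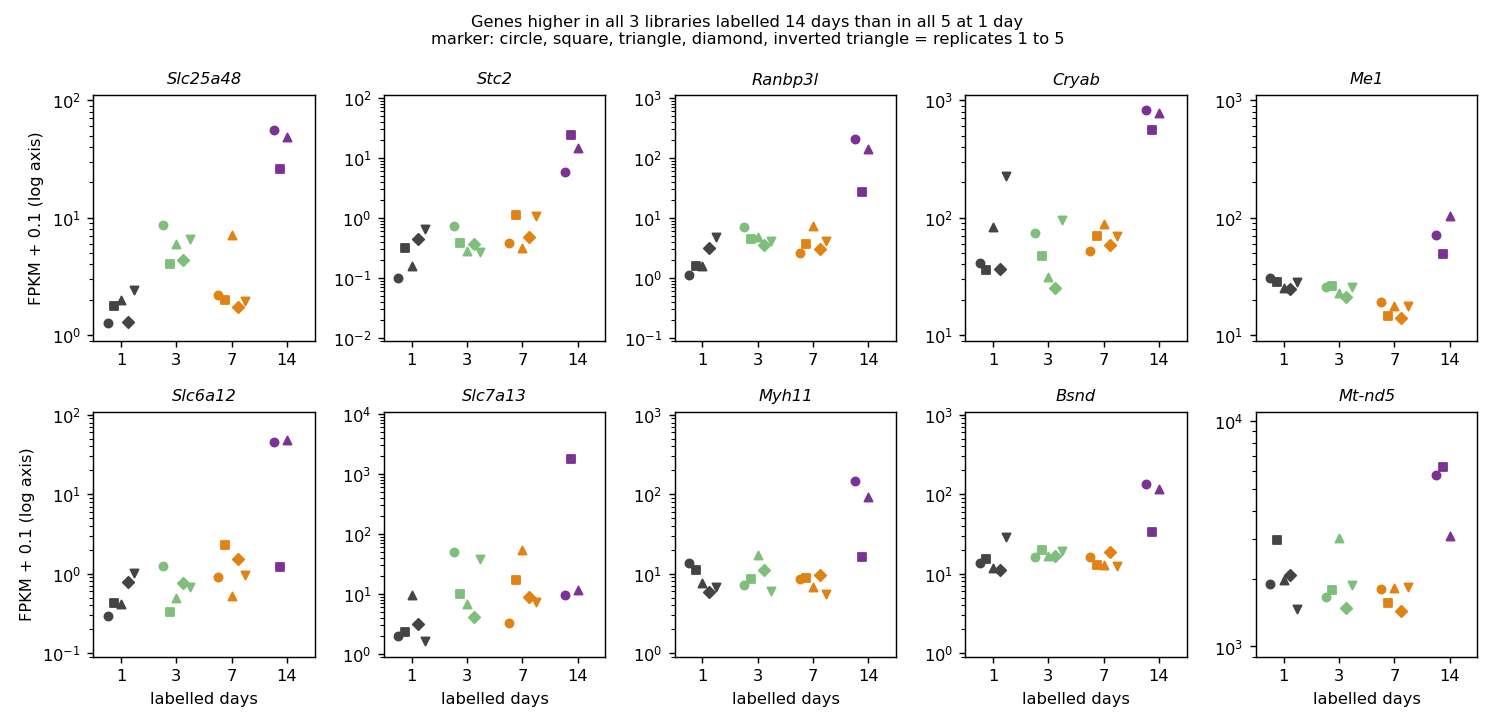
FPKM plus 0.1 (vertical, log axis) of 10 genes in all 18 libraries by labelled days (horizontal); 1 point per library, marker shape gives the replicate number. Slc25a48, Cryab and Me1 are high in all 3 libraries labelled 14 days, Slc6a12 is high in replicates 1 and 3 (45.4 and 47.9 FPKM) and Slc7a13 in replicate 2 (1764).

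Genes of the hypertonic medulla were chosen as a list after their values were seen. Of 18 tested members 12 were called higher, 6 of them without overlap, and 2 lower, beside 17.7% and 14.3% over all tested genes. Because members were picked by their values, this count is a description only. The list sum did not rise, at 5879, 2796 and 5561 FPKM against 3735 to 7795 at 1 day. With replicate 2 as the only library labelled 14 days the median log2 fold change was −0.1. Slc6a6, a further member, was lower, at 6.06, 10.2 and 6.56 FPKM against 19.4 to 30.4. Slc6a12, the betaine transporter BGT1 by which medullary cells take up osmolyte, was at 0.19, 0.326, 0.32, 0.696 and 0.932 FPKM at 1 day and at 45.4, 1.13 and 47.9 labelled 14 days. Replicate 2 was just above day 1, and with it as the only library labelled 14 days the gene was not called; the fit with all 3 gave 6.09 ± 0.80 (edgeR adjusted p 7.12e-05). Tesc, the calcium-binding protein tescalcin, had the same form, at 102, 8.27 and 206 FPKM against 1.41 to 6.21 (5.27 ± 0.71, edgeR adjusted p 9.54e-05; 4.43 without replicate 3; not called with replicate 2 alone).

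Cryab, the small heat shock protein alpha-B crystallin (chromosome 8, 55178289 to 55182545), was high in all 3 libraries, at 820, 556 and 782 FPKM. At 1 day it was at 41.2, 35.9, 82.6 and 36.6 FPKM in replicates 1 to 4 and 228 in replicate 5. The log2 fold change was 3.33 ± 0.53 (edgeR adjusted p 0.000336), and 4.08 without replicate 5 of day 1. Hspa1b, the inducible chaperone HSP70, was at 10.4, 3.55 and 13.9 FPKM against 1.67 to 4.05, overlapping in FPKM through replicate 2, and rose by 2.09 ± 0.34 (edgeR adjusted p 0.000381), but was not called with replicate 2 alone.

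Distal segments held rises and falls in the same lists. Among 16 tested loop of Henle and macula densa genes 7 were called higher and 2 lower, 2 of each without overlap (4 lower without replicate 2 labelled 14 days). Bsnd, the chloride channel subunit barttin, was at 13.7, 15.4, 11.8, 11.0 and 29.2 FPKM at 1 day and at 133, 33.1 and 115 labelled 14 days (log2 fold change 2.69 ± 0.31, edgeR adjusted p 2.66e-05). Ptger3, the prostaglandin E2 receptor EP3, was at 120.1, 99.8, 142, 114 and 96.2 FPKM and at 6.30, 13.7 and 7.57. Ptger3 was low in replicate 2 too, with a log2 difference of −3.32 ± 0.37 (edgeR adjusted p 1.97e-05), and −3.96 without replicate 2.

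Cldn14, a tight junction protein that limits calcium reabsorption, fell by 5.04 ± 0.96, to 0, 0.377 and 0.11 FPKM from 1.24 to 10.3 (−4.45 without replicate 1 and −6.53 without replicate 2 labelled 14 days). Ppp1r1a, an inhibitor of protein phosphatase 1, was at 20, 218 and 22.5 FPKM against 6.94 to 13.5, and its call was lost without replicate 2 (log2 fold change 3.5, and 1.09 with adjusted p 0.0885). In the distal convoluted and connecting tubule Trpv5, the apical calcium channel, fell to 0.959, 1.39 and 0 FPKM from 5.91 to 11.6 (−3.11 ± 0.84, edgeR adjusted p 0.0111; −4.02 without replicate 2 and −2.5 without replicate 3). Wnk4 and Stk39, kinases that switch on the thiazide-sensitive transporter, rose by 1.89 ± 0.29 and 1.34 ± 0.24, on the TMM scale without overlap and in FPKM with replicate 2 inside the range of day 1. Slc12a3, that transporter, was at 97.0, 76.5 and 1.60 FPKM against 78.1 to 157. With replicate 2 alone Cldn14, Trpv5 and Wnk4 were not called. Cldn14, Trpv5 and Ppp1r1a lost the call with library weights, and Trpv5 also with the 8 libraries alone.

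Rhbg, an ammonium transporter of intercalated and connecting cells, was nearly level over the 3 libraries, at 57.3, 54.5 and 54.8 FPKM against 22.2 to 36.7 (log2 fold change 1.22 ± 0.25, edgeR adjusted p 0.00171). Among 29 nephron transcription factors 11 were called higher, 6 without overlap, and 1 lower, but 8 were higher and 9 lower without replicate 2 labelled 14 days, and 6 or 7 were higher without replicate 1, 2 or 4 of day 1. Esrrb, an estrogen-related receptor of the distal nephron, was at 11.6, 4.78 and 12.4 FPKM against 1.12 to 3.07 (2.5 ± 0.36, edgeR adjusted p 0.000157). Sim1 and Foxc1, developmental transcription factors, rose by 1.01 ± 0.18 and 1.65 ± 0.37, Foxc1 to 9.98, 8.36 and 8.50 FPKM from 2.01 to 6.11. In these 3 genes replicate 5 was the highest of day 1.

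Vessel wall genes rose mainly in replicates 1 and 3 labelled 14 days. The list of fibroblasts, pericytes and smooth muscle summed to 1133, 223 and 969 FPKM, against 179.5 to 291 at 1 day. Of 23 tested markers of fibroblasts, pericytes and smooth muscle 16 were called higher, 7 without overlap, and none lower, at a median log2 fold change of 1.08; with replicate 2 as the only library labelled 14 days 3 were higher, and without replicate 1 labelled 14 days 10. Myh11, smooth muscle myosin, was at 13.7, 10.9, 7.55, 5.81 and 6.80 FPKM at 1 day and at 147, 16.0 and 93.3 labelled 14 days. Replicate 2 lay just above the highest library of day 1, and the log2 fold change of 3.38 ± 0.48 (edgeR adjusted p 0.000135) was 2.69 without replicate 1. Mylk, the kinase that starts smooth muscle contraction, was at 47.0, 13.8 and 24.7 FPKM against 7.40 to 12.3 (1.79 ± 0.26, edgeR adjusted p 0.000188).

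Acta2 and Tagln, actin and an actin-binding protein of smooth muscle and myofibroblasts, were at 292, 48.3 and 255 and at 202, 48.0 and 197 FPKM, against 26.3 to 52.0 and 29.1 to 54.8. Both rose, by 2.56 ± 0.41 and 2.06 ± 0.38, but replicate 2 lay within the range of day 1 in FPKM, and neither was called with it alone. Of 24 tested endothelial markers 17 were called higher, 4 without overlap, and none lower, at a median of 1.55, against 5 higher and 1 lower with replicate 2 alone and 7 higher without replicate 3. They summed to 1626, 448 and 3507 FPKM against 420.1 to 987. Igfbp5, an IGF-binding protein, rose by 2.89 ± 0.46, and Sox17, an arterial transcription factor, by 1.51 ± 0.25, each inside the range of day 1 in FPKM through replicate 2. Ehd3, a glomerular endothelial protein, was at 10.7, 8.17 and 10.2 FPKM against 5.90 to 7.48 (0.76 ± 0.17, edgeR adjusted p 0.00428).

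Podocyte genes did not move together, with 5 of 18 called higher and 2 lower (5 lower without replicate 2 and 3 higher without replicate 3 labelled 14 days). Ptpro, a receptor phosphatase of podocytes, was at 2.17, 3.09 and 0.917 FPKM against 15.6 to 31.1 (log2 fold change −3.15 ± 0.45, edgeR adjusted p 0.000144; −3.77 without replicate 2). Of 23 tested genes of the renin-angiotensin and vasoactive list 6 were called higher and 2 lower, at a median of 0.03 (8 and 5 without replicate 2 labelled 14 days, and 1 lower without replicate 1 or 3 labelled 14 days or replicate 1 or 2 of day 1). Its member Ptgds, prostaglandin D synthase, fell by 3.69 ± 0.67, to 2.00, 4.75 and 1.58 FPKM from 21.1 to 87.4 (−4.50 without replicate 2; not called with library weights or with replicate 2 alone). Of 19 genes of cytochrome P450 and steroid metabolism 5 were higher and 3 lower, at a median of 0.54, against 2 higher and 6 lower without replicate 2. That count was 3 higher without replicate 1 or 4 of day 1, and 1 lower without replicate 1 labelled 14 days. In this list Cyp7b1, an oxysterol hydroxylase, fell by 2.66 ± 0.36, to 0.236, 0.695 and 0.513 from 3.23 to 4.06. Ptpro, Ptgds and Cyp7b1 were low in each library labelled 14 days.

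Markers of tissue beside the parenchyma moved with the libraries. Of 16 tested adipocyte markers 15 were called higher and none lower, but only 2 lay above in all 3 libraries; they summed to 749, 641 and 5136 FPKM against 84.8 to 357 at 1 day. Without Pck1, which is also an enzyme of gluconeogenesis, the sums were 627, 71.4 and 4864 against 37.8 to 343, with replicate 2 inside the range of day 1. With replicate 2 as the only library labelled 14 days 2 were called higher, and without replicate 3 labelled 14 days 3. None of the 9 tested urothelial markers was called by edgeR with all libraries, and 7 were higher without replicate 5 of day 1. Psca, a glycoprotein of urothelium, was at 592, 2.48 and 924 FPKM and at 1.06 to 6.08 in replicates 1 to 4 and 279 in replicate 5 of day 1. Skeletal muscle markers had 4 of 4 called higher (2 without replicate 1 or 3 labelled 14 days, or without replicate 1 or 4 of day 1) with sums of 15.4, 5.12 and 12.1 against 3.48 to 5.81, and adrenal markers summed to 30.7, 46.5 and 51.9 against 46.2 to 60.4. Of the listed genes 3 adrenal, 2 urothelial and 6 pancreatic members had no count in any library labelled 14 days. The part of these tissues in the rises above was not tested.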

How the data were processed

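For each library the authors deposited a read count per gene, per the file headers, and an FPKM value (fragments per kilobase, scaled to the library total), also per the file headers. The submitters' processing notes name fastp 0.19.7 and HISAT2 2.0.4. No counting tool, strand setting, annotation release or build was stated (not given in the sources used here). Reads of antisense and overlapping genes cannot be told apart, and coordinates carry no build. RNA was poly(A)-selected, per the labels' protocols, and all libraries share 1 batch label. Nothing says that libraries come from separate animals, and p-values measure their spread, which may be technical.

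The 14511 of 30957 genes kept by filterByExpr (min.count 10, min.total.count 15) were tested with edgeR 4.0.16 in R 4.3.3 (glmQLFit, TMM factors, all 18 libraries, 1 coefficient per duration), and p-values were adjusted by Benjamini-Hochberg over all of them. Each SE was derived as the log2 fold change over the root of F. Overlap was judged on TMM-scaled CPM (counts scaled to library size). Alternatives used DESeq2 1.42.0, limma 3.58.1 on log2(FPKM + 1) and other filters, scalings and libraries. On simulated counts (14390 genes, 120 calls) 36.7% of 2-fold and 77% of 4-fold changes were recovered and 5.8% of calls were false. No pair of libraries agreed within sampling noise.

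The comparison, the gene lists and the rule for genes were chosen with earlier results of these data known. The rule took the 12 largest called rises and falls without overlap at a mean FPKM of at least 5, and a fixed set of markers. It also took up to 5 called members without overlap per list on its majority side and 2 on the other side. The text names part of these. The lists of medullary and proximal straight segment genes were chosen after their values were seen. So were Cryab, Hspa1b and Slc6a6 named from them, and the choice of Mt-nd4, Mt-atp6 and the promoter pieces. Of 1174 listed symbols 1131 were found in the table, 28 of them by an older symbol.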

Additional observations from a re-analysis of the deposited data

Results flagged for a closer look

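Within the 5 libraries of day 1, 166 sets of values were examined for a library far from the other 4, and 23 had one; chance gives about 1 in 20. Replicate 5 was that library in 18 of the 23. It lay at 54.5 on the first principal component. Its summed FPKM was low for proximal tubule transporters (2075) and for amino acid catabolism (1949), and high for collecting duct principal cells (1406), endothelium (987), the type I interferon response (1519), urothelium (399), adipocytes (357) and skeletal muscle (5.81). Among named genes it was highest for Socs3 at 148 FPKM, Cd68 at 28.7, Tesc at 6.21, Cryab at 228, Igfbp5 at 188, Sox17 at 8.31, Bsnd at 29.2, Stk39 at 15.7 and Sim1 at 5.10. Replicate 3 stood apart for the liver list (807) and for C3 at 249 FPKM and Slc7a13 at 9.41, and replicate 2 for Hpx at 40.9 FPKM and Mt-nd4l at 5694. The 3 libraries labelled 14 days are too few for this check.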

How the results depend on the processing

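The count of called genes (4646 with all libraries) was 5076 by DESeq2 and 4493 without a filter on low counts, and it was 1628 (749 higher, 879 lower; 160 list members in place of 368) with the 8 libraries fitted alone and 637 (329 and 308; 107 list members) for changes beyond a log2 fold change of 1. Limma gave 962 higher and 3682 lower on log2(FPKM + 1), and 902 and 3848 with a pseudocount of 0.1; column totals, added after the data were seen, gave 1402 and 3398. Genes without overlap numbered 384 above and 3036 below on FPKM and 386 and 3026 with column totals. With each library left out in turn the calls ran from 3682 to 6405 (1967 to 3261 higher, 1698 to 3144 lower; 313 to 524 list members), genes without overlap from 1236 to 3412 above and from 1840 to 3626 below, and the difference in mitochondrial share from 9.36 to 15.84 percentage points; the largest counts came without replicate 2 labelled 14 days. With that library and replicate 5 of day 1 both left out, a choice made after the data were seen, 7216 genes were called, 3459 of them lower, with 594 list members, 4388 genes above and 4440 below. With replicate 2 as the only library labelled 14 days, assumed to vary like the other groups, 4679 lay above and 5340 below. Fewer libraries leave fewer chances to overlap. Counts without overlap therefore tend to rise whenever a library is left out, and cannot be compared directly with those from all 8. The log2 fold change of Col1a1 was −1.37 without replicate 3 labelled 14 days and 0.02, reversed, without replicate 2. With replicate 2 as the only library labelled 14 days it was −2.84. Of 109 called genes carried through these settings, 74 kept direction and call in every setting that tested them, other than the size threshold. Some lost the call with replicate 2 as the only library labelled 14 days. A gene absent from a setting was not counted against it, as with mitochondrial genes in the fit that left them out.

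Replicate numbers did not pair the libraries: deviations of same-numbered libraries correlated at −0.095, 0.395 and −0.292. With the replicate number as a block 3985 genes were called, 2086 higher and 1899 lower, with 318 list members. In the simulation 36.7% of 2-fold changes were recovered, but its libraries all shared the same mean profile. How many 2-fold changes were missed with 3 libraries of unlike makeup labelled 14 days was not tested.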
